A study of Homo sapiens with 24 samples.

Results

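The human mitochondrial genome is a small circular DNA with 37 genes, and every row of the A549 expression table whose locus lies on the sequence named MT was taken. The rule found all 37, namely 13 coding genes, 2 rRNAs and 22 tRNAs, among 58302 genes in the table. A549 is an established human lung cancer line, known for strong aldehyde and aldo-keto metabolism genes. The cells carried a lentivirus that overexpresses GPD1, the cytosolic glycerol-3-phosphate dehydrogenase, or a blank vector lentivirus, and were grown in medium with 10 mM metformin, a biguanide diabetes drug known to inhibit complex I, or without it. The 4 groups of 3 libraries were GPD1 cells with metformin, untreated GPD1 cells, vector cells with metformin and untreated vector cells. The study asked how GPD1 expression bears on the response of cancer cells to metformin. All groups carry a lentivirus and none is untransduced, and the sources used here give neither the promoter of the transgene, nor the duration of treatment, nor whether a population is 1 clone. Nothing in the labels shows that the libraries within a group stem from different cultures, and the p-values therefore reflect only library-to-library spread, possibly technical. Besides these 12 samples, 12 of the kidney cancer line 786-O belong to the series and were not analysed here.

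Expression is given as FPKM (fragments per kilobase of gene and per size of the library), and depth was 13.27 to 17.95 M reads per library, so that 1 read on a gene of 70 bases was worth 0.796 to 1.08 FPKM. GPD1 itself stood at 13.3 to 13.8 FPKM in GPD1 cells with metformin and 15.1 to 16.8 FPKM in untreated GPD1 cells, against 0.0248 to 0.0702 FPKM in vector cells with metformin and 0.0408 to 0.103 FPKM in untreated vector cells. Of 8 genes that mark the A549 line, 7 stood above 1 FPKM in all libraries, while EPCAM lay between 0.240 and 1.57 FPKM. Summed, these 8 markers held 5256 to 5588 FPKM in GPD1 cells with metformin, 5806 to 5989.9 in untreated GPD1 cells, 2868 to 2938 in vector cells with metformin and 4742 to 4861 in untreated vector cells, and their part in any result was not tested. The sum of 5 kidney line markers was 9.58 to 9.92 FPKM in GPD1 cells with metformin, 13.1 to 14.8 in untreated GPD1 cells, 6.36 to 7.67 in vector cells with metformin and 16.4 to 17.4 in untreated vector cells, and that of 4 blood and stromal markers 3.14 to 3.29, 2.98 to 3.76, 2.25 to 2.73 and 5.03 to 5.45 in the same groups, which was not tested either. In the kidney list PAX8 was at most 0.162 FPKM, PAX2 lay between 0.457 and 2.48, CDH6 between 0.200 and 1.96, CA9 between 1.59 and 3.52 and HAVCR1 between 3.12 and 11.8 FPKM over the 12 libraries. In the blood and stromal list HBB was listed at 0, PTPRC and PECAM1 were at most at 0.0299 and 0.0267 FPKM, and COL1A1 lay between 2.24 and 5.41 FPKM.

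Both strands of the mitochondrial genome are transcribed by the RNA polymerase POLRMT into long polycistronic RNAs, in which tRNAs sit between most of the coding genes and rRNAs. Enzymes cut at the tRNAs and so release the rRNAs and most mRNAs, many of which are then polyadenylated by the poly(A) polymerase MTPAP. The 13 mRNAs encode core subunits of the respiratory chain complexes I, III and IV and of the ATP synthase. The rRNAs belong to the ribosome that translates these mRNAs, and the tRNAs carry amino acids to it. Of the 37 genes, 12 coding genes, both rRNAs and 14 tRNAs lie on the plus strand of the reference, here called the heavy strand transcript, and MT-ND6 and 8 tRNAs lie on the minus strand, the light strand transcript. Because the libraries were made from polyadenylated RNA, a value for an rRNA, a tRNA or a coding gene counts only RNA that passed that selection. The part that passed may differ between members. Reads on a tRNA gene can come from the tRNA or from a longer RNA that holds it, and the deposited values cannot tell these apart. In such bulk libraries fewer transcripts per cell and fewer cells that hold them cannot be told apart.

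The tRNAs on which the results below turn are short genes of 66 to 75 bases, shown here from GENCODE release 29 (GRCh38), 5′ to 3′ along the RNA and written as DNA, with the anticodon in capitals. The first 4 lie side by side on the minus strand at MT:5587-5891 between MT-ND2 and MT-CO1, and carry alanine, asparagine, cysteine and tyrosine. The next 3 flank the rRNAs on the plus strand, namely the phenylalanine tRNA at MT:577-647, the valine tRNA at MT:1602-1670 and the first leucine tRNA at MT:3230-3304. The last 2, for histidine at MT:12138-12206 and for the second leucine codon family at MT:12266-12336, lie on the plus strand between MT-ND4 and MT-ND5.
MT-TA: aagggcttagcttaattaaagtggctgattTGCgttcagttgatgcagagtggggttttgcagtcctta
MT-TN: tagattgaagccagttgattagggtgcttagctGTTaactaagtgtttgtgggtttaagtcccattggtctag
MT-TC: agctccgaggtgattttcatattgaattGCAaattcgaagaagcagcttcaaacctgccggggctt
MT-TY: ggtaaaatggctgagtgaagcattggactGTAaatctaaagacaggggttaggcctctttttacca
MT-TF: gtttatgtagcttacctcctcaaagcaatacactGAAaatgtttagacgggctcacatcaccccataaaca
MT-TV: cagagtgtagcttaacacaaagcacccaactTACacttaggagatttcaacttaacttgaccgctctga
MT-TL1: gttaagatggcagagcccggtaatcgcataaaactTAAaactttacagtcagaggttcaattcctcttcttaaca
MT-TH: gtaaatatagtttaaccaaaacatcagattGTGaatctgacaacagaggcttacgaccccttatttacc
MT-TL2: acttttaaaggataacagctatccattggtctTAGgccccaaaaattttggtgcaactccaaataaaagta

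Some neighbours share bases, which matters for how their values may be read. MT-ATP8 and MT-ATP6, 2 subunits of the ATP synthase, share 46 bases at MT:8527-8572 on the plus strand, and MT-ND4L and MT-ND4, 2 complex I subunits, share 7 bases at MT:10760-10766. Both overlaps are printed in capitals with 20 bases of sequence on each side.
MT-ATP8/MT-ATP6 overlap: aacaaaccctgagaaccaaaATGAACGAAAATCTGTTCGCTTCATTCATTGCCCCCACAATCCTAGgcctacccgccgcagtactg
MT-ND4L/MT-ND4 overlap: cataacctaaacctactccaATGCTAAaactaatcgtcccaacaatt
Each capital stretch opens with atg, the start codon of the second gene of the pair. MT-TI and MT-TQ overlap by 3 bases on opposite strands, and MT-TC and MT-TY by 1 base on the same strand. The labels' protocols state no strand for the library kit, so reads of genes that overlap or lie opposite each other cannot be told apart.

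Without metformin, all 37 members were above 0 in every library of both populations. Coding genes took 80.1 ± 0.462% of the members' reads in untreated GPD1 cells and 77.9 ± 0.559% in untreated vector cells (mean ± SD, n = 3 each), reads being FPKM times gene length. MT-CO1, the catalytic subunit of cytochrome c oxidase, had the highest level per length of the coding genes in all 4 groups. MT-CO2 and MT-CO3, the other core subunits of that complex, followed in both untreated groups, and MT-ND6 and MT-ATP6 held the lowest places, MT-ND6 in GPD1 cells and MT-ATP6 in vector cells. Among the tRNAs, the 4 of the minus strand cluster beside MT-CO1 stood highest, at 1585 to 3088 FPKM in untreated GPD1 cells and 1306 to 2464 FPKM in untreated vector cells. MT-TQ and MT-TS1 stood lowest, at 7.23 to 9.74 and 3.23 to 7.50 FPKM in untreated GPD1 cells, against 7.92 to 10.46 and 7.01 to 9.10 FPKM in untreated vector cells.

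**Figure D1:**
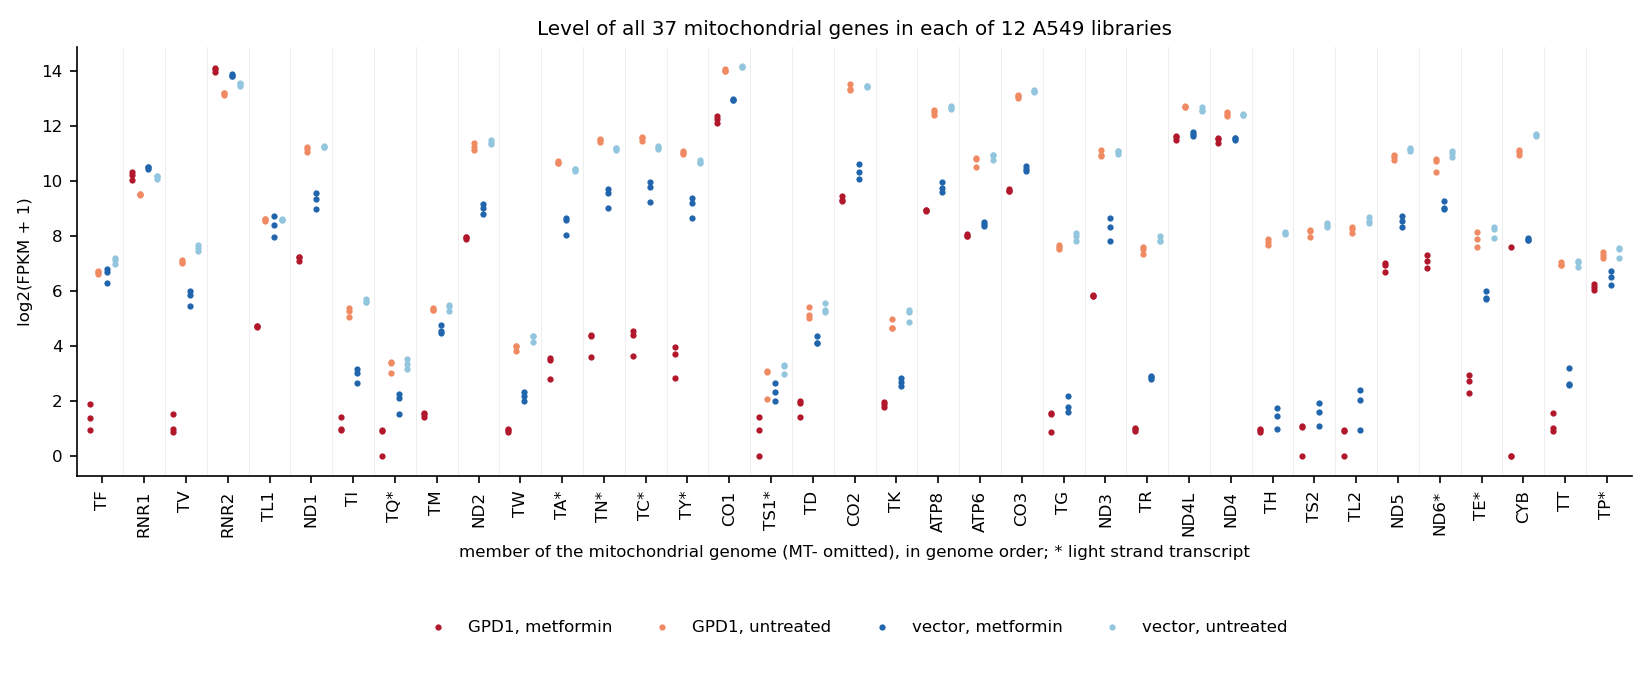
Level of each of the 37 mitochondrial genes, as log2(FPKM + 1), in each of the 12 libraries (points), in genome order, with genes of the light strand transcript marked by an asterisk. Under metformin (dark points) most members sit far below the untreated libraries (pale points), MT-RNR1 and MT-RNR2 sit above them, and MT-CYB is at 0 in 2 libraries of GPD1 cells with metformin.

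Metformin lowered nearly the whole genome and raised its 2 rRNAs. In GPD1 cells the 22 tRNAs and 13 coding genes were all lower with metformin than without it and both rRNAs were higher (limma, Benjamini-Hochberg adjusted p under 0.05 over 12607 genes tested). In the same comparison 48% of all genes tested were called lower and 26.1% higher. In vector cells 21 of 22 tRNAs and 13 of 13 coding genes were lower and both rRNAs were higher, against 43.3% of all genes lower and 31.3% higher, and MT-TL1 was not called. All 37 members passed the filter on level, a 12-library mean of 1 FPKM or more. The 3 libraries with metformin lay apart from the 3 without it for 35 lower and 2 higher members in GPD1 cells, as for 49.6% and 27.5% of all genes tested. In vector cells they lay apart for 34 lower and 2 higher members, as for 44.2% and 32.4% of all genes. The direction of calls among all genes depended on the scaling of the libraries, with 4991 higher and 4195 lower in GPD1 cells and 5262 higher and 4096 lower in vector cells under median-ratio factors, against 3293 higher and 6056 lower, and 3948 higher and 5463 lower, as deposited. The members' own counts under those factors were 2 higher and 35 lower in GPD1 cells and 2 higher and 31 lower in vector cells.

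The median coding gene kept 8.61% of its untreated level in GPD1 cells with metformin and 18.1% in vector cells with metformin, and the median tRNA kept 1.39% and 27.4%, as ratios of mean FPKM. Without MT-CYB the median coding gene kept 9.07% in GPD1 cells. On the log2(FPKM + 1) scale, which understates the change of weakly expressed genes, the median change of the coding genes was -3.53 in GPD1 cells and -2.46 in vector cells, that of the tRNAs -5.54 and -1.88, and that of all genes tested -0.20 and -0.10. GPD1 and vector cells share no library in these 2 comparisons. The order of the classes thus differed between the populations, with tRNAs below coding genes in GPD1 cells and above them in vector cells, by the medians given. By strand, the median of the 8 light strand tRNAs in vector cells was 33.1%. That of the 14 heavy strand tRNAs was 14.9%, below the coding median there, so the change of order did not hold for them.

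**Figure D2:**
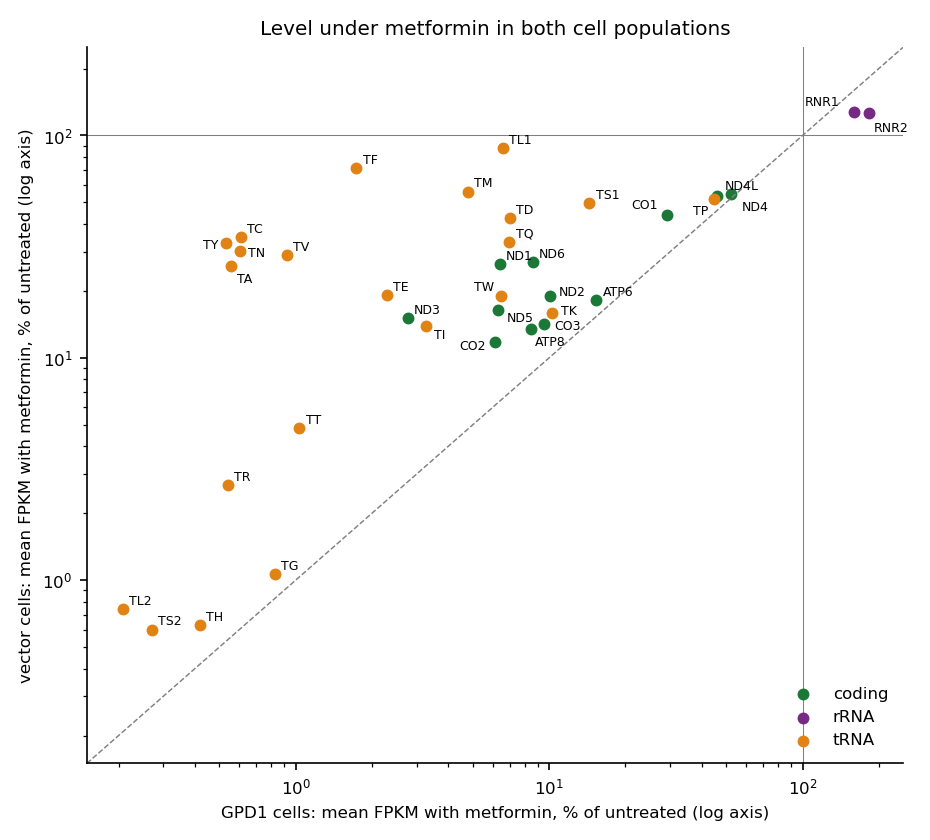
Mean FPKM with metformin as a percentage of mean FPKM without it, in GPD1 cells (horizontal, log axis) and in vector cells (vertical, log axis), for 36 of the 37 mitochondrial genes, MT-CYB being left out because it is at 0 in 2 libraries. Points above the dashed line of equality kept less of their level in GPD1 cells, as do all 34 coding and tRNA genes drawn, and both rRNAs lie beyond 100% on both axes.

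**Figure D3:**
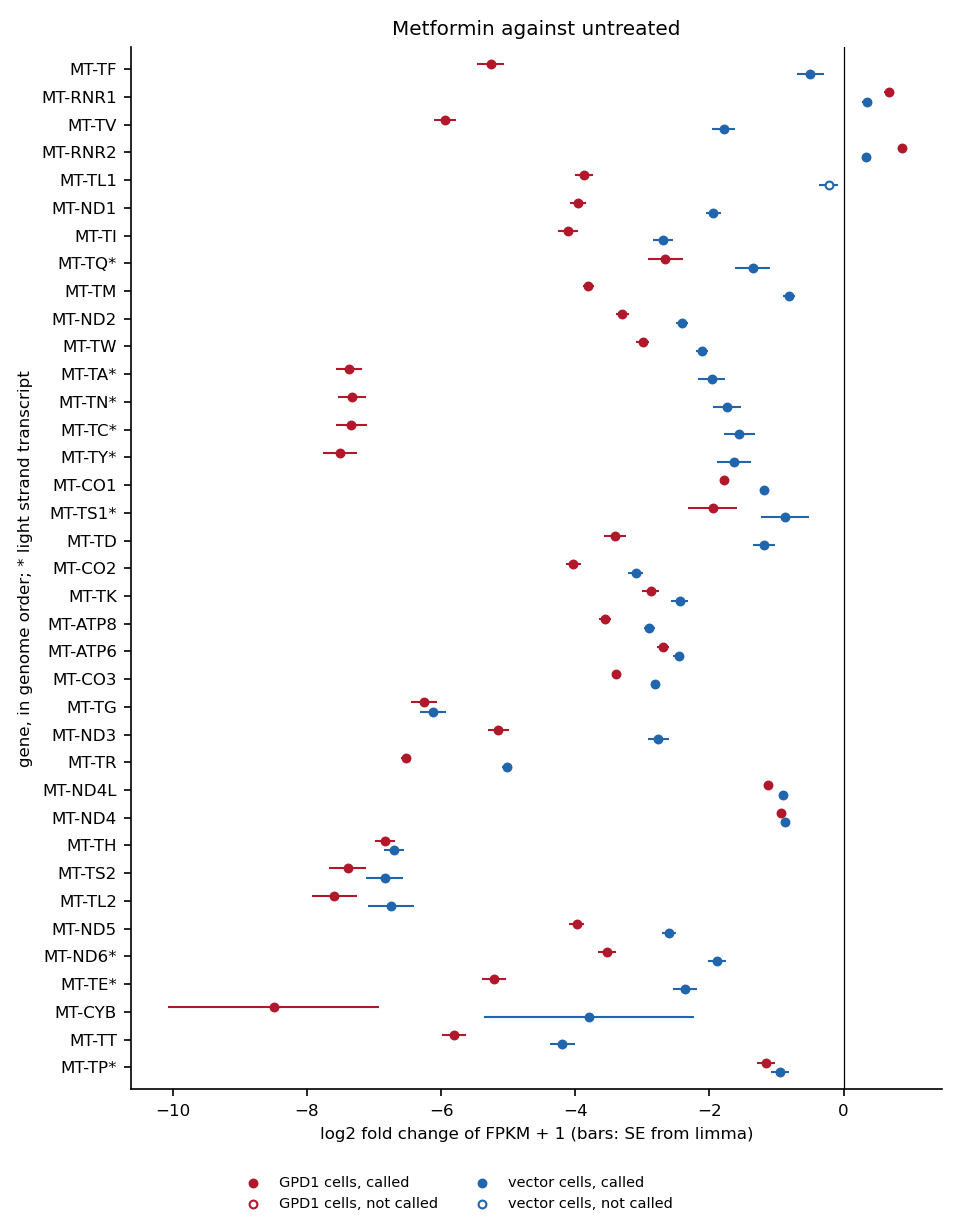
Log2 fold change of FPKM + 1, metformin against untreated, for all 37 members in genome order, in GPD1 cells (red) and vector cells (blue), with bars of 1 SE from limma and open points for genes not called. The 4 minus strand tRNAs MT-TA, MT-TN, MT-TC and MT-TY lie between -7.51 and -7.33 in GPD1 cells and between -1.97 and -1.55 in vector cells, and the wide bars of MT-CYB come with its values of 0 in 2 libraries.

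The rRNAs were the only members that rose with metformin in either population. MT-RNR2 (MT:1671-3229), the large subunit rRNA, had 15816, 17265 and 17131 FPKM in GPD1 cells with metformin, against 8909, 9279.9 and 9235 FPKM in untreated GPD1 cells. Vector cells had 14203, 14409.6 and 14987 FPKM with metformin, against 11643, 11838 and 11154 FPKM without it. The groups did not overlap in either population, and the rise was 1.83-fold in GPD1 cells (log2 fold change 0.87, SE 0.05, limma adjusted p = 2.82e-08) and 1.26-fold in vector cells (log2 fold change 0.33, SE 0.05, limma adjusted p = 5.05e-05). MT-RNR1 (MT:648-1601), the small subunit rRNA, had 1035, 1187 and 1282 FPKM in GPD1 cells with metformin, against 720.0, 733 and 735 FPKM in untreated GPD1 cells. It had 1435, 1390.2 and 1445 FPKM in vector cells with metformin, against 1148, 1152 and 1064 FPKM in untreated vector cells. These groups did not overlap either, with rises of 1.60-fold (log2 fold change 0.67, SE 0.07, limma adjusted p = 4.54e-06) and 1.27-fold (log2 fold change 0.34, SE 0.07, limma adjusted p = 0.000742). The rRNAs lie next to each other at the start of the heavy strand transcript with only MT-TV between them. MT-RNR2 stood 14.4 ± 0.968-fold above MT-RNR1 in GPD1 cells with metformin, 12.54 ± 0.150-fold in untreated GPD1 cells, 10.2 ± 0.273-fold in vector cells with metformin and 10.3 ± 0.173-fold in untreated vector cells, in FPKM. The rise of MT-RNR2 in vector cells was not called when genes without any filter on level were tested together (limma adjusted p = 0.0724).

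Complex I, the NADH dehydrogenase that metformin is known to inhibit, takes 7 of its core subunits from this genome, and all 7 fell with metformin in both populations. MT-ND1 (MT:3307-4262) had 135, 149 and 148 FPKM in GPD1 cells with metformin, against 2106, 2375 and 2275 FPKM in untreated GPD1 cells. Vector cells had 755, 648 and 505 FPKM of MT-ND1 with metformin, against 2452, 2398 and 2386 FPKM without it. The groups lay far apart, and MT-ND1 fell 15.7-fold in GPD1 cells (log2 fold change -3.96, SE 0.12, limma adjusted p = 7.43e-10) and 3.79-fold in vector cells (log2 fold change -1.94, SE 0.12, limma adjusted p = 6.96e-08). MT-ND2 (MT:4470-5511) had 247, 248 and 238 FPKM in GPD1 cells with metformin, against 2226, 2649 and 2383 FPKM in untreated GPD1 cells. For MT-ND2 the vector cells gave 576, 513 and 441 FPKM with metformin, against 2868, 2638 and 2595 FPKM in untreated vector cells. It fell 9.90-fold in GPD1 cells (limma adjusted p = 5.52e-10) and 5.29-fold in vector cells (limma adjusted p = 2.33e-09), again without overlap.

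MT-ND3 (MT:10059-10404) had the largest fall of the 12 coding genes other than MT-CYB in GPD1 cells. MT-ND3 had 55.4, 55.6 and 57.3 FPKM in GPD1 cells with metformin, against 1893, 1980.2 and 2206 FPKM in untreated GPD1 cells. With metformin, MT-ND3 stood at 399, 322 and 227 FPKM in vector cells, against 2154, 1989.9 and 2147 FPKM in untreated vector cells. The fall was 36.1-fold in GPD1 cells (log2 fold change -5.15, SE 0.16, limma adjusted p = 8.48e-10) and 6.64-fold in vector cells (log2 fold change -2.76, SE 0.16, limma adjusted p = 4.38e-08). MT-ND5 had 102, 121 and 129 FPKM in GPD1 cells with metformin, against 1735, 1978 and 1883 FPKM in untreated GPD1 cells. The values of MT-ND5 were 422, 371 and 318 FPKM in vector cells with metformin, against 2315, 2283 and 2140.0 FPKM in untreated vector cells. MT-ND5 (MT:12337-14148) thus stood at 6.30% of its untreated level in GPD1 cells (limma adjusted p = 4.43e-10) and at 16.5% in vector cells (limma adjusted p = 4.06e-09). MT-ND4L (MT:10470-10766) and MT-ND4 (MT:10760-12137), read from 1 bicistronic mRNA, fell least of the complex I genes. MT-ND4 had 2677, 2927 and 3019.7 FPKM in GPD1 cells with metformin, against 5228, 5802 and 5433 FPKM in untreated GPD1 cells. In vector cells MT-ND4 had 2974, 2848 and 2975 FPKM with metformin, against 5453, 5296 and 5427 FPKM without it. That is 52.4% of the untreated level in GPD1 cells (log2 fold change -0.93, SE 0.05, limma adjusted p = 5.16e-08) and 54.4% in vector cells (log2 fold change -0.88, SE 0.05, limma adjusted p = 6.8e-08). MT-ND4L had 2835, 3114 and 3139 FPKM in GPD1 cells with metformin, against 6781, 6510.2 and 6503 FPKM in untreated GPD1 cells. Vector cells had 3459, 3329 and 3171 FPKM of MT-ND4L with metformin, against 5937, 6630.3 and 6133 FPKM without it. MT-ND4L kept 45.9% in GPD1 cells (limma adjusted p = 2.08e-08) and 53.2% in vector cells (limma adjusted p = 8.59e-08).

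MT-ND6 (MT:14149-14673) is the 1 coding gene of the light strand transcript. Its RNA may pass the selection for polyadenylated RNA to another extent than that of the other coding genes, which was not tested. MT-ND6 had 114, 135 and 158 FPKM in GPD1 cells with metformin, against 1291, 1763 and 1667 FPKM in untreated GPD1 cells. For MT-ND6 the vector cells gave 614, 522 and 498 FPKM with metformin, against 2148, 1858 and 2039 FPKM in untreated vector cells. It kept 8.61% of its untreated level in GPD1 cells (log2 fold change -3.53, SE 0.14, limma adjusted p = 4.69e-09) and 27.03% in vector cells (log2 fold change -1.89, SE 0.14, limma adjusted p = 3.78e-07), with no overlap between groups. The log2 ratio of MT-ND6 to the median heavy strand coding gene of the same library was -1.39 ± 0.26 in GPD1 cells with metformin and -1.22 ± 0.16 in untreated GPD1 cells, and -0.44 ± 0.11 in vector cells with metformin and -1.06 ± 0.08 in untreated vector cells (mean ± SD, n = 3 each). With metformin against without it, this ratio differed by -0.17 in GPD1 cells and by 0.62 in vector cells, and the exact two-sided permutation test over both populations gave p = 0.19, adjusted to 0.19 over 6 such tests. For GPD1 against vector cells the differences were -0.95 with metformin and -0.16 without it, and the exact two-sided permutation test over both treatments gave p = 0.01, adjusted to 0.015. The smallest p that the 400 arrangements allow is 0.005.

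MT-CYB (MT:14747-15887), the cytochrome b subunit of complex III, was listed at 191, 0 and 0 FPKM in GPD1 cells with metformin, against 1957, 2214 and 2097 FPKM in untreated GPD1 cells. With metformin, MT-CYB stood at 240.1, 229 and 233 FPKM in vector cells, against 3347, 3197 and 3279 FPKM in untreated vector cells. Its neighbours MT-ND6, MT-TE and MT-TP were above 0 in all 3 libraries of GPD1 cells with metformin, so for this gene of 1141 bases only the library values are given in that group, with no fold. MT-CYB was called lower with metformin in GPD1 cells (limma adjusted p = 0.000521) and in vector cells (limma adjusted p = 0.0471), where it stood at 7.15% of the untreated level. That share was the lowest of the 13 coding genes in vector cells, and the vector libraries with and without metformin did not overlap. The call in vector cells ended when any 1 of the other 9 libraries (untreated GPD1 cells, or vector cells) was left out (highest limma adjusted p = 0.0916). Its SE of 1.57 comes from a spread shared by all groups, which includes the 2 values of 0.

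Complex IV, the cytochrome c oxidase, takes its 3 core subunits from this genome, and all 3 fell in both populations. MT-CO1 had 4419.8, 4867 and 5264 FPKM in GPD1 cells with metformin, against 16312, 17219 and 16379 FPKM in untreated GPD1 cells. The values of MT-CO1 were 8003, 7873 and 7903 FPKM in vector cells with metformin, against 18153, 18004 and 18000.5 FPKM in untreated vector cells. MT-CO1 (MT:5904-7445) kept 29.1% of its untreated level in GPD1 cells (log2 fold change -1.78, SE 0.06, limma adjusted p = 1.06e-09) and 43.9% in vector cells (log2 fold change -1.19, SE 0.06, limma adjusted p = 1.1e-08). MT-CO2 had 615, 638 and 691 FPKM in GPD1 cells with metformin, against 9989, 11547 and 10339.6 FPKM in untreated GPD1 cells. In vector cells MT-CO2 had 1550.4, 1283 and 1068 FPKM with metformin, against 11059, 10779.7 and 11192 FPKM without it. MT-CO2 (MT:7586-8269), the subunit that accepts electrons from cytochrome c, fell 16.4-fold in GPD1 cells (limma adjusted p = 5.52e-10) and 8.47-fold in vector cells (limma adjusted p = 1.59e-09). MT-CO3 had 800.2, 800.2 and 841 FPKM in GPD1 cells with metformin, against 8192, 8874 and 8584 FPKM in untreated GPD1 cells. Vector cells had 1468, 1385 and 1299.6 FPKM of MT-CO3 with metformin, against 9980.4, 9737 and 9543 FPKM without it. MT-CO3 (MT:9207-9990) fell 10.51-fold in GPD1 cells (limma adjusted p = 1.76e-11) and 7.05-fold in vector cells (limma adjusted p = 2.57e-11), and none of these groups overlapped. MT-CO2 and MT-CO3 together held 2.60 ± 0.0887% of the members' reads in GPD1 cells with metformin, against 17.6 ± 0.310% in untreated GPD1 cells, and 4.26 ± 0.482% in vector cells with metformin, against 16.97 ± 0.154% in untreated vector cells.

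The ATP synthase subunits MT-ATP8 (MT:8366-8572) and MT-ATP6 (MT:8527-9207), which overlap in the sequence printed above, fell together. MT-ATP8 had 491, 473 and 488 FPKM in GPD1 cells with metformin, against 5342, 6104 and 5725 FPKM in untreated GPD1 cells. For MT-ATP8 the vector cells gave 996, 856 and 767 FPKM with metformin, against 6499.9, 6256 and 6676 FPKM in untreated vector cells. MT-ATP8 fell 11.8-fold in GPD1 cells (log2 fold change -3.56, SE 0.08, limma adjusted p = 2.58e-10) and 7.42-fold in vector cells (log2 fold change -2.90, SE 0.08, limma adjusted p = 3.48e-10). MT-ATP6 had 270.0, 252 and 256 FPKM in GPD1 cells with metformin, against 1453, 1829 and 1785 FPKM in untreated GPD1 cells. With metformin, MT-ATP6 stood at 362, 326 and 341 FPKM in vector cells, against 1982, 1727 and 1968 FPKM in untreated vector cells. MT-ATP6 fell 6.51-fold in GPD1 cells (limma adjusted p = 1.26e-09) and 5.52-fold in vector cells (limma adjusted p = 1.4e-09), with no overlap between groups for either gene. The FPKM of MT-ATP8 over that of MT-ATP6 was 1.87 ± 0.0450 in GPD1 cells with metformin, against 3.41 ± 0.242 in untreated GPD1 cells, and 2.54 ± 0.262 in vector cells with metformin, against 3.43 ± 0.175 in untreated vector cells. The 2 genes sit on 1 bicistronic mRNA, and MT-ATP6 may share reads with a nuclear copy described below, so their ratio rests on how shared reads were assigned.

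In GPD1 cells the tRNAs fell most of the 3 gene classes, by their median. All 22 together held 152, 217 and 212 reads in the libraries of GPD1 cells with metformin, against 10577, 14759 and 13099 in untreated GPD1 cells. In vector cells they held 4230, 4124 and 2370 reads with metformin, against 11877, 13069 and 9650 without it. Of the 22 tRNAs, 15 had at most 3 reads in every library of GPD1 cells with metformin, as had 2 in vector cells with metformin. Of the other 7 in GPD1 cells with metformin, MT-TP held 65, 83 and 79 reads and MT-TL1 28, 32 and 30, and MT-TA, MT-TN, MT-TC, MT-TY and MT-TE held 4 to 25. The 87 tRNA values of up to 10 reads were all whole reads within 0.02. Percentages below are pooled reads per depth over the 3 libraries of each group, and their exact 95% intervals cover counting error only.

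The 4 clustered tRNAs of the light strand transcript, whose sequences open the list above, fell in both populations with metformin, and to different extents. MT-TY had 6.23, 12.3 and 14.7 FPKM in GPD1 cells with metformin, against 2015, 2153 and 2083 FPKM in untreated GPD1 cells. The values of MT-TY were 665, 585 and 402 FPKM in vector cells with metformin, against 1621, 1741 and 1644 FPKM in untreated vector cells. MT-TY, the tyrosine tRNA, thus kept 0.535% (95% interval 0.372% to 0.745%) of its untreated level in GPD1 cells and 33.3% (95% interval 31.6% to 35.2%) in vector cells, and the intervals lie far apart. MT-TC had 11.4, 20.1 and 22.5 FPKM in GPD1 cells with metformin, against 2791, 3025 and 3088 FPKM in untreated GPD1 cells. In vector cells MT-TC had 994, 876 and 598 FPKM with metformin, against 2261, 2464 and 2371 FPKM without it. For MT-TC, the cysteine tRNA, 0.611% (95% interval 0.463% to 0.793%) was kept in GPD1 cells and 35.2% (95% interval 33.6% to 36.8%) in vector cells. MT-TN had 11.3, 19.8 and 20.4 FPKM in GPD1 cells with metformin, against 2712, 2932 and 2875 FPKM in untreated GPD1 cells. Vector cells had 824, 749 and 522 FPKM of MT-TN with metformin, against 2215, 2358 and 2326 FPKM without it. MT-TN, the asparagine tRNA, kept 0.608% (95% interval 0.464% to 0.783%) in GPD1 cells and 30.7% (95% interval 29.4% to 32.1%) in vector cells. MT-TA had 5.96, 10.9 and 10.3 FPKM in GPD1 cells with metformin, against 1585, 1706 and 1589 FPKM in untreated GPD1 cells. For MT-TA the vector cells gave 404, 378 and 264 FPKM with metformin, against 1306, 1365 and 1369 FPKM in untreated vector cells. MT-TA, the alanine tRNA, kept 0.562% (95% interval 0.379% to 0.803%) in GPD1 cells and 26.2% (95% interval 24.6% to 27.97%) in vector cells. All 4 were called lower with metformin in GPD1 cells (log2 fold changes -7.51 to -7.33, limma adjusted p at most 1.5e-09) and in vector cells (-1.97 to -1.55, limma adjusted p at most 0.000139). In untreated cells the same 4 were higher in every library of GPD1 cells than in every library of vector cells, by log2 fold changes of 0.27 to 0.33 that limma did not call (adjusted p at least 0.344).

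The 3 tRNAs that flank the rRNAs fell in GPD1 cells with metformin, while the rRNAs between them rose. MT-TF and MT-TV were down to at most 3 reads a library there, and MT-TL1 held 28 to 32. MT-TF had 0.965, 1.63 and 2.73 FPKM in GPD1 cells with metformin, against 98.5, 104 and 103 FPKM in untreated GPD1 cells. With metformin, MT-TF stood at 111, 103 and 76.5 FPKM in vector cells, against 137, 145 and 125 FPKM in untreated vector cells. MT-TF, the phenylalanine tRNA at the head of the heavy strand transcript, kept 1.74% (95% interval 0.635% to 3.83%) in GPD1 cells (log2 fold change -5.26, SE 0.20, limma adjusted p = 3.55e-09) and 71.4% (95% interval 61.8% to 82.3%) in vector cells (log2 fold change -0.50, SE 0.20, limma adjusted p = 0.0417). The call in vector cells did not hold under median-ratio scaling (limma adjusted p = 0.299) or without any 1 of 9 libraries (highest limma adjusted p = 0.161). MT-TV had 0.993, 0.837 and 1.87 FPKM in GPD1 cells with metformin, against 140.2, 129 and 132 FPKM in untreated GPD1 cells. The values of MT-TV were 63.9, 57.2 and 42.9 FPKM in vector cells with metformin, against 204, 189 and 174 FPKM in untreated vector cells. MT-TV, the valine tRNA that lies between the rRNAs, kept 0.917% (95% interval 0.249% to 2.37%) in GPD1 cells and 29.01% (95% interval 24.5% to 34.2%) in vector cells (limma adjusted p = 6.37e-10 and 2.85e-06).

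MT-TL1, the leucine tRNA after MT-RNR2, was the 1 tRNA not called in vector cells. MT-TL1 had 25.6, 24.7 and 25.8 FPKM in GPD1 cells with metformin, against 392, 389 and 374 FPKM in untreated GPD1 cells. In vector cells MT-TL1 had 419, 337 and 249 FPKM with metformin, against 382, 388 and 379 FPKM without it. In GPD1 cells it kept 6.57% (95% interval 5.25% to 8.13%) of its untreated level (log2 fold change -3.87, SE 0.14, limma adjusted p = 2.39e-09). In vector cells the libraries with metformin lay on both sides of the untreated ones, at 88.2% (95% interval 81.6% to 95.4%) of their level (log2 fold change -0.22, SE 0.14, limma adjusted p = 0.166), and the change turned to 0.03 with median-ratio factors. Without library 1 of vector cells with metformin, the fall in vector cells was called, at -0.40 (limma adjusted p = 0.00476).

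On the heavy strand transcript downstream of MT-CO3, several tRNAs were down to a few reads with metformin in both populations. MT-TH had 0.993, 0.837 and 0.937 FPKM in GPD1 cells with metformin, against 203, 236 and 219.9 FPKM in untreated GPD1 cells. Vector cells had 1.77, 2.42 and 0.997 FPKM of MT-TH with metformin, against 277, 270.4 and 279 FPKM without it. MT-TH, the histidine tRNA, kept 0.415% (95% interval 0.0855% to 1.22%) in GPD1 cells and 0.647% (95% interval 0.237% to 1.41%) in vector cells. MT-TS2 had 1.16, 0 and 1.10 FPKM in GPD1 cells with metformin, against 249.6, 286 and 299 FPKM in untreated GPD1 cells. For MT-TS2 the vector cells gave 2.07, 2.83 and 1.17 FPKM with metformin, against 349.7, 323 and 339.5 FPKM in untreated vector cells. MT-TS2, a serine tRNA, kept 0.256% (95% interval 0.0309% to 0.927%) in GPD1 cells and 0.618% (95% interval 0.226% to 1.35%) in vector cells. MT-TL2 had 0.965, 0 and 0.910 FPKM in GPD1 cells with metformin, against 272, 303 and 323 FPKM in untreated GPD1 cells. With metformin, MT-TL2 stood at 4.31, 3.13 and 0.969 FPKM in vector cells, against 408, 353 and 369 FPKM in untreated vector cells. MT-TL2, the second leucine tRNA, kept 0.198% (95% interval 0.0239% to 0.715%) and 0.766% (95% interval 0.366% to 1.41%). These 3 genes lie in a row between MT-ND4 and MT-ND5, and all were called lower in both populations (limma adjusted p at most 1.74e-08). MT-TG, the glycine tRNA before MT-ND3, had 0.849 to 2.01 FPKM in GPD1 cells with metformin, against 182 to 203 FPKM in untreated GPD1 cells, and 2.02 to 3.60 FPKM in vector cells with metformin, against 227 to 275 FPKM in untreated vector cells. MT-TR, the arginine tRNA after MT-ND3, had 0.889 to 1.05 FPKM in GPD1 cells with metformin, against 163 to 195 FPKM in untreated GPD1 cells, and 5.99 to 6.59 FPKM in vector cells with metformin, against 225 to 257 FPKM in untreated vector cells. MT-TT, the threonine tRNA after MT-CYB, kept 1.03% (95% interval 0.279% to 2.65%) in GPD1 cells and 4.78% (95% interval 2.89% to 7.49%) in vector cells.

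The 8 tRNAs not yet described, apart from MT-TP, were called lower with metformin in both populations. MT-TM, the methionine tRNA before MT-ND2, had 1.70 to 2.01 FPKM in GPD1 cells with metformin, against 38.3 to 40.6 FPKM in untreated GPD1 cells, and 21.2 to 26.2 FPKM in vector cells with metformin, against 37.4 to 44.5 FPKM in untreated vector cells. MT-TD, the aspartate tRNA before MT-CO2, had 1.70 to 3.02 FPKM in GPD1 cells with metformin, against 31.9 to 42.3 FPKM in untreated GPD1 cells, and 16.2 to 19.6 FPKM in vector cells with metformin, against 36.5 to 46.98 FPKM in untreated vector cells. MT-TM kept 4.75% (95% interval 1.71% to 10.6%) in GPD1 cells and 56.4% (95% interval 42.1% to 75.1%) in vector cells, and MT-TD kept 6.83% (95% interval 2.88% to 13.9%) in GPD1 cells and 42.2% (95% interval 30.5% to 57.9%) in vector cells. MT-TK, the lysine tRNA after MT-CO2, had 2.48 to 2.94 FPKM in GPD1 cells with metformin, against 24.4 to 30.4 FPKM in untreated GPD1 cells, and 4.91 to 6.12 FPKM in vector cells with metformin, against 28.5 to 38.7 FPKM in untreated vector cells. MT-TI, the isoleucine tRNA after MT-ND1, had 0.937 to 1.68 FPKM in GPD1 cells with metformin, against 32.3 to 40.7 FPKM in untreated GPD1 cells, and 5.32 to 7.97 FPKM in vector cells with metformin, against 48.02 to 52.1 FPKM in untreated vector cells. MT-TE, the glutamate tRNA beside MT-ND6, kept 2.29% (95% interval 1.35% to 3.64%) in GPD1 cells and 19.3% (95% interval 16.4% to 22.6%) in vector cells. Among the lowest of these genes were MT-TW, the tryptophan tRNA, with 3 pooled reads in GPD1 cells with metformin, against 46 in untreated GPD1 cells, and MT-TQ, the glutamine tRNA, with 2 pooled reads, against 30. MT-TW had 12 pooled reads in vector cells with metformin, against 60 in untreated vector cells, and MT-TQ had 11, against 31. MT-TS1, the other serine tRNA, had 3 pooled reads in GPD1 cells with metformin, against 20 in untreated GPD1 cells, and its call in vector cells (limma adjusted p = 0.0456) was lost under median-ratio scaling (limma adjusted p = 0.13) and without any 1 of 7 libraries. With a pseudocount of 0.1 the call of MT-TQ in vector cells ended (limma adjusted p = 0.0675), as did that of its interaction (limma adjusted p = 0.0594).

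MT-TP, the proline tRNA next to the control region on the light strand transcript, fell least of the tRNAs in GPD1 cells. MT-TP had 65.5, 70.5 and 75.1 FPKM in GPD1 cells with metformin, against 144, 157 and 172 FPKM in untreated GPD1 cells. The values of MT-TP were 105, 90.8 and 73.8 FPKM in vector cells with metformin, against 185, 189.6 and 145 FPKM in untreated vector cells. It kept 44.5% (95% interval 37.9% to 52.1%) in GPD1 cells (log2 fold change -1.15, SE 0.13, limma adjusted p = 1.54e-05) and 51.6% (95% interval 44.7% to 59.4%) in vector cells (log2 fold change -0.94, SE 0.13, limma adjusted p = 7.09e-05). In GPD1 cells the share kept by light strand tRNAs thus ranged widely, MT-TY of the cluster beside MT-CO1 standing at 0.535% and MT-TP at 44.5%. The median over the 8 tRNAs of that strand was 1.45% in GPD1 cells and 33.1% in vector cells, and that over the 14 tRNAs of the heavy strand transcript 1.39% and 14.9%, as ratios of mean FPKM.

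**Figure D4:**
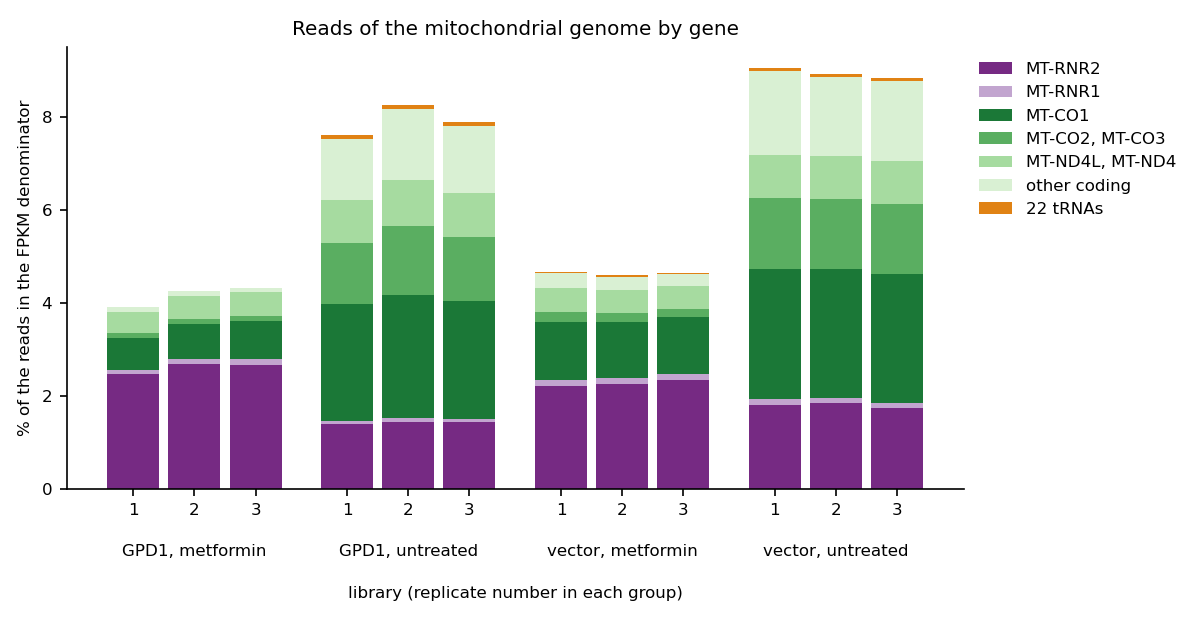
Reads on the mitochondrial genome as a percentage of the reads behind the FPKM denominator (vertical), stacked by gene or gene class, for each of the 12 libraries. Libraries with metformin hold 3.92% to 4.33% in GPD1 cells and 4.59% to 4.67% in vector cells, and their largest part is MT-RNR2, whereas untreated libraries hold 7.61% to 9.05% with MT-CO1 as the largest part.

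The genome's share of all reads was lower with metformin, and its make-up changed with it. The 37 genes held 4.17 ± 0.218% of reads in GPD1 cells with metformin, against 7.92 ± 0.325% in untreated GPD1 cells. In vector cells they held 4.63 ± 0.0409% with metformin, against 8.94 ± 0.104% without it (mean ± SD, n = 3 each). The groups did not overlap, and with metformin the share fell by 3.75 percentage points in GPD1 cells and fell by 4.31 points in vector cells (exact two-sided permutation test within population, p = 0.005, adjusted to 0.01 over 6 tests). GPD1 minus vector cells, the share differed by -0.466 points with metformin and by -1.02 points without it (exact two-sided permutation test within treatment, p = 0.005, adjusted to 0.01). MT-RNR2 alone held 61.7 to 63.2% of the members' reads in GPD1 cells with metformin, against 17.5 to 18.2% in untreated GPD1 cells. In vector cells MT-RNR2 held 47.4 to 50.4% with metformin, against 19.7 to 20.7% without it. Coding genes held 34.7 ± 0.694% in GPD1 cells with metformin and 47.7 ± 1.40% in vector cells with metformin. MT-CO1, the leading coding gene, held 17.9 ± 0.730% in GPD1 cells with metformin, against 32.4 ± 0.562% in untreated GPD1 cells. The MT-ND4L and MT-ND4 pair held 11.7 ± 0.104% in GPD1 cells with metformin, against 12.02 ± 0.0874% in untreated GPD1 cells. With metformin these 2 genes ranked 2 and 3 among the coding genes by mean FPKM, in both populations.

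The log2 ratio of rRNA to coding gene reads was 0.91 ± 0.04 in GPD1 cells with metformin, against -2.08 ± 0.04 in untreated GPD1 cells. In vector cells it was 0.12 ± 0.08 with metformin, against -1.87 ± 0.05 without it. Being a ratio within a library, it does not depend on the scaling of libraries, and it was above 0 in all 6 libraries with metformin and below 0 in all 6 without it. The difference with metformin was 3.0 in GPD1 cells and 1.99 in vector cells (exact two-sided permutation test within population, p = 0.005, adjusted to 0.01 over 6 tests). GPD1 cells differed from vector cells by 0.79 with metformin and by -0.22 without it, in opposite directions, and over both treatments the exact two-sided permutation test gave p = 0.1, adjusted to 0.12.

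Under metformin, most members were lower in GPD1 cells than in vector cells. Of the 37 members, 22 tRNAs, 11 coding genes and MT-RNR1 were called lower and MT-RNR2 higher, against 35% of all genes tested called lower and 25% higher (limma). The 3 libraries of GPD1 cells lay apart from the 3 of vector cells for 34 lower members and 1 higher member, as for 37.1% and 27.7% of all genes tested. Among the 34 were MT-TG, MT-TH, MT-TS2 and MT-TL2, whose closest libraries held equal reads, 2 for MT-TG and 1 for the others. Their FPKM differed there only through depth (14.59 against 14.54 M reads). With upper-quartile factors 29 members were lower and 2 higher, and among all genes 3086 were lower and 5083 higher, against 4409 and 3157 as deposited. Large differences were those of the clustered tRNAs printed first, MT-TY (log2 fold change -5.56), MT-TC (-5.46), MT-TN (-5.29) and MT-TA (-5.14). MT-TY stood at 2.01% (95% interval 1.39% to 2.80%) of the level of vector cells, and the limma adjusted p of these 4 was at most 3.03e-08. MT-TF, at 1.82% (95% interval 0.664% to 4.01%), and MT-TV, at 2.21% (95% interval 0.597% to 5.76%), had differences of -5.17 and -4.65 (limma adjusted p = 1.25e-08 and 9.13e-09). MT-TL1 stood at 7.48% (95% interval 5.97% to 9.27%), with 90 pooled reads in GPD1 cells, against 1239 in vector cells (log2 fold change -3.64, SE 0.14, limma adjusted p = 1.14e-08). MT-TE and MT-TM differed by -3.15 and -3.08, and MT-TD by -2.40 (limma adjusted p at most 4.48e-07). The tRNAs that were near 0 in both groups had smaller differences, MT-TH by -0.47, MT-TG by -0.52, MT-TS2 by -0.83 and MT-TL2 by -1.18, on 2 to 10 pooled reads a group, and their calls ended in some of the alternatives. In percent of the level of vector cells, the 95% intervals were 15.05% to 190% for MT-TG and 8.33% to 241% for MT-TH. They were 3.39% to 192% for MT-TS2 and 2.19% to 96.6% for MT-TL2. Those of MT-TG, MT-TH and MT-TS2 included an equal level, so these calls were not beyond counting error.

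Among the coding genes under metformin, MT-ND3 stood at 17.8% of the level of vector cells (log2 fold change -2.44, SE 0.16, limma adjusted p = 2.99e-07), MT-ND1 at 22.6% (log2 fold change -2.12, SE 0.12, limma adjusted p = 1.07e-07) and MT-ND6 at 24.9% (log2 fold change -2.01, SE 0.14, limma adjusted p = 5.65e-07). MT-ND5 stood at 31.8% (limma adjusted p = 3.28e-07) and MT-ND2 at 47.9% (limma adjusted p = 3.05e-06). The 3 cytochrome c oxidase subunits lay closer together, with MT-CO2 at 49.8%, MT-CO3 at 58.8% and MT-CO1 at 61.2% (limma adjusted p at most 2.23e-05). MT-ATP8 stood at 55.5% (limma adjusted p = 7.82e-06) and MT-ATP6 at 75.7% (limma adjusted p = 0.00235), a call that ended for MT-ATP6 with upper-quartile factors (limma adjusted p = 0.116). MT-ND4L, at 91.3% (limma adjusted p = 0.062), and MT-ND4, at 98.03% (limma adjusted p = 0.643), were not called, and MT-ND4 was higher by 0.21 with upper-quartile factors (limma adjusted p = 0.00975). MT-CYB was called lower (limma adjusted p = 0.0127), at 191, 0 and 0 FPKM in GPD1 cells, against 240.1, 229 and 233 FPKM in vector cells. That call ended in a fit of the 2 groups alone (limma adjusted p = 0.0564) and without library 2 or library 3 of GPD1 cells with metformin (highest limma adjusted p = 0.054). Of the rRNAs, MT-RNR2 stood at 115% (log2 fold change 0.20, SE 0.05, limma adjusted p = 0.00266) and MT-RNR1 at 82.04% (log2 fold change -0.29, SE 0.07, limma adjusted p = 0.00328). The MT-RNR2 difference was not called without a filter on level (limma adjusted p = 0.363). The MT-RNR1 difference was -0.05 under upper-quartile scaling (limma adjusted p = 0.611). MT-TP, at 77.6% (95% interval 65.05% to 92.5%), MT-TK, at 48.8% (95% interval 19.4% to 113%), MT-TW, at 25.7% (95% interval 4.66% to 95.3%), and MT-TR, at 15.4% (95% interval 2.94% to 52.1%), were the remaining tRNAs with the fewest reads or the smallest differences, next to MT-TI, MT-TT, MT-TQ and MT-TS1, which differed by -1.83 to -1.36 on the log2 scale. The interval of MT-TK included an equal level, so its call was not beyond counting error either. The libraries of MT-TP overlapped, and its call (limma adjusted p = 0.049) ended without any 1 of 10 libraries (highest limma adjusted p = 0.188), under median-ratio (0.16) and upper-quartile (0.539) scaling, without a filter on level (0.114), with the replicate block (0.0665) and in a fit of the 2 groups alone (0.0611).

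**Figure D5:**
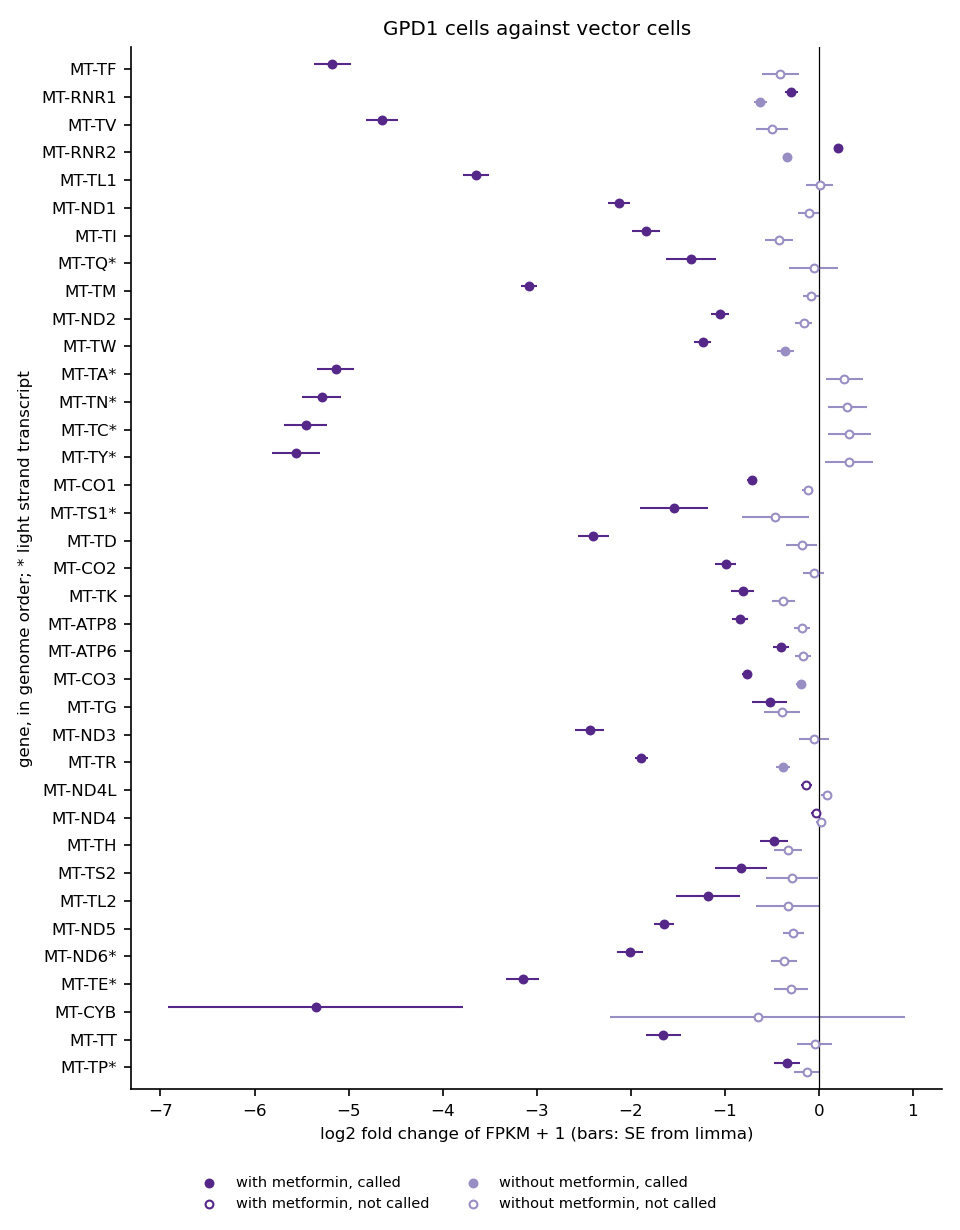
Log2 fold change of FPKM + 1, GPD1 against vector cells, for all 37 members in genome order, with metformin (dark) and without it (pale), with bars of 1 SE from limma and open points for genes not called. With metformin the tRNAs of the minus strand cluster lie between -5.56 and -5.14, while without it they lie between 0.27 and 0.33 and are open.

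Without metformin 5 members were called between GPD1 and vector cells. Called lower were both rRNAs, MT-CO3, MT-TR and MT-TW, and no member was called higher, against 11.3% of all genes called lower and 9.99% higher (limma). The 3 libraries of GPD1 cells lay apart from the 3 of vector cells for 18 lower and 4 higher members, as for 22.7% and 18.8% of all genes tested. MT-RNR1 stood at 65.01% of the level of vector cells (log2 fold change -0.62, SE 0.07, limma adjusted p = 9.05e-05) and MT-RNR2 at 79.2% (log2 fold change -0.34, SE 0.05, limma adjusted p = 0.000394), which was not called without a filter on level (limma adjusted p = 0.174). MT-CO3 stood at 87.7% (log2 fold change -0.19, SE 0.05, limma adjusted p = 0.0208), MT-TR at 76.5% (log2 fold change -0.39, SE 0.07, limma adjusted p = 0.00387) and MT-TW at 77.01% (log2 fold change -0.35, SE 0.09, limma adjusted p = 0.0219). The calls of MT-CO3 and MT-TW ended without any 1 of 4 and 3 libraries. That of MT-CO3 also ended under median-ratio (limma adjusted p = 0.0548) and upper-quartile (0.0578) scaling and without a filter on level (0.195). The 12 coding genes not called had log2 fold changes between -0.65 for MT-CYB and 0.08 for MT-ND4L. MT-CYB had 1957, 2214 and 2097 FPKM in GPD1 cells, against 3347, 3197 and 3279 FPKM in vector cells, without overlap, but its SE of 1.57 comes from a spread that includes the 2 values of 0. In a fit of the 2 untreated groups alone 18 members were called, 14 lower, MT-CYB among them (limma adjusted p = 0.000694), and 4 higher, namely MT-TA, MT-TN, MT-TC and MT-TY, against 12.1% of all genes called lower and 10.3% higher in that fit. The other differences were MT-ND1 -0.10, MT-ND2 -0.16, MT-ND3 -0.05, MT-ND4 0.02, MT-ND5 -0.27, MT-ND6 -0.37, MT-CO1 -0.12, MT-CO2 -0.05, MT-ATP8 -0.18 and MT-ATP6 -0.17 on the log2 scale.

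The response to metformin itself differed between the populations for 27 of the 37 members, by the interaction term. Lower in GPD1 cells were 15 tRNAs and 10 coding genes and higher were both rRNAs, against 26.8% of all genes called lower and 19.1% higher (limma). With upper-quartile factors 24 members were lower and 2 higher, and among all genes 2483 were lower and 3980 higher, against 3384 and 2407 as deposited. MT-TY, MT-TC, MT-TN and MT-TA had the largest such differences among the called genes, at -5.88, -5.78, -5.59 and -5.41, followed by the rRNA neighbours MT-TF (-4.76), MT-TV (-4.15) and MT-TL1 (-3.65). Among the coding genes MT-ND3 (-2.38), MT-ND1 (-2.02), MT-ND6 (-1.64) and MT-ND5 (-1.38), all of complex I, were ahead of MT-CO2 (-0.94), MT-ND2 (-0.89), MT-ATP8 (-0.66), MT-CO1 (-0.59), MT-CO3 (-0.57) and MT-ND4L (-0.22). The other complex I genes, MT-ND2, MT-ND4L and MT-ND4, had smaller differences than MT-CO2. The call of MT-ND4L (limma adjusted p = 0.0455) ended without any 1 of 9 libraries (highest limma adjusted p = 0.103), under median-ratio scaling (0.229), with totals that leave out mitochondrial genes (0.0544), without a filter on level (0.345) and with the replicate block (0.0693), and its difference was 2.66e-05, close to 0, under upper-quartile scaling. MT-RNR2 (0.54, limma adjusted p = 6.94e-05) and MT-RNR1 (0.33, limma adjusted p = 0.0158) rose more in GPD1 cells, calls that ended without a filter on level (limma adjusted p = 0.0819 for MT-RNR2 and 0.0645 for MT-RNR1). Not called were MT-ND4 (-0.05), MT-ATP6 (-0.23), MT-CYB (limma adjusted p = 0.109, with its 2 values of 0) and the tRNAs MT-TG, MT-TH, MT-TS2, MT-TL2, MT-TS1, MT-TK and MT-TP. MT-TG, MT-TH, MT-TS2 and MT-TL2 were near 0 in both populations with metformin.

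Copies of mitochondrial DNA sit in the nuclear genome, and reads may be shared with them. The table lists 407 such rows, of which 304 were at 0 in all 12 libraries and 8 had a mean of at least 1 FPKM. The highest, MTATP6P1 on chromosome 1 (GRCh38, chr1:633696-634376), is a copy of MT-ATP6. It had 144, 159 and 157 FPKM in GPD1 cells with metformin, against 904, 1112 and 1012 FPKM in untreated GPD1 cells. MTATP6P1 had in vector cells 219, 201 and 206 FPKM with metformin, against 1229.7, 1078 and 1217 FPKM without it. Its FPKM was 59.4 ± 5.14%, 59.9 ± 2.86%, 60.9 ± 0.634% and 62.1 ± 0.296% of that of MT-ATP6 in GPD1 cells with metformin, untreated GPD1 cells, vector cells with metformin and untreated vector cells, so the 2 values moved together and both are uncertain. MTND2P28, a copy of MT-ND2 on the same stretch of chromosome 1, had 36.9, 34.4 and 35.1 FPKM in GPD1 cells with metformin, against 600.4, 616 and 635 FPKM in untreated GPD1 cells. MTND2P28 had in vector cells 163, 132 and 109 FPKM with metformin, against 675, 710.0 and 590.3 FPKM without it, and it held 14.5 ± 0.574% of the FPKM of MT-ND2 in GPD1 cells with metformin, against 25.6 ± 2.06% in untreated GPD1 cells. Under metformin, MTND2P28 was lower in GPD1 than in vector cells (log2 fold change -1.88, limma adjusted p = 2.84e-07). MTCO1P12, a copy of MT-CO1 there, had 33.8 to 37.2 FPKM in GPD1 cells with metformin, against 83.1 to 106 FPKM in untreated GPD1 cells, and stayed at 0.905% or less of MT-CO1 in all 12 libraries. MTND4P12 and MTND5P11 on chromosome 5 had at most 12.7 and 5.24 FPKM in any library. MTRNR2L12 on chromosome 3, a copy of MT-RNR2 annotated as coding, had 9.73, 10.1 and 9.49 FPKM in GPD1 cells with metformin, against 3.40, 3.78 and 3.65 FPKM in untreated GPD1 cells, and like MT-RNR2 it was called higher with metformin in GPD1 cells (log2 fold change 1.22, SE 0.10, limma adjusted p = 6.85e-07) and in vector cells (log2 fold change 1.00, SE 0.10, limma adjusted p = 3.21e-06). In all, 6 of the 8 tested copies were lower and 1 higher with metformin in GPD1 cells, against 48% and 26.1% of all genes, and 5 lower and 1 higher in vector cells, against 43.3% and 31.3%.

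The nuclear genes that transcribe, replicate and process this genome were counted in the same fit. Of 15 tested genes of mitochondrial DNA transcription and replication, 10 were lower and 2 higher with metformin in GPD1 cells, against 48% of all genes lower and 26.1% higher. In vector cells 8 were lower and 5 higher, against 43.3% lower and 31.3% higher. Their median log2 fold changes were -0.47 and -0.27, against -0.20 and -0.10 for all genes tested. TWNK, the Twinkle helicase of the mitochondrial DNA replication fork, had 0.620 ± 0.114 FPKM in GPD1 cells with metformin, against 8.71 ± 0.283 FPKM in untreated GPD1 cells (log2 fold change -2.59, SE 0.14, limma adjusted p = 4.81e-08). In vector cells TWNK had 9.69 ± 2.56 FPKM with metformin, against 9.99 ± 0.722 FPKM without it (log2 fold change -0.07, SE 0.14, limma adjusted p = 0.686). The interaction was called (log2 fold change -2.52, limma adjusted p = 5.28e-06). TFAM, which packages mitochondrial DNA and opens its promoters, had 4.23 ± 0.271 FPKM in GPD1 cells with metformin, against 10.9 ± 0.599 FPKM in untreated GPD1 cells (log2 fold change -1.18, SE 0.06, limma adjusted p = 2.07e-08). In vector cells TFAM had 9.34 ± 0.630 FPKM, against 12.1 ± 0.257 FPKM (log2 fold change -0.34, SE 0.06, limma adjusted p = 0.000322), and its interaction was called at -0.84 (limma adjusted p = 1.98e-05). POLRMT, the polymerase itself, was called higher in vector cells with metformin, at 30.9 ± 0.980 FPKM, against 19.98 ± 0.539 FPKM without it (log2 fold change 0.60, SE 0.04, limma adjusted p = 1.38e-07). In GPD1 cells POLRMT had 20.2 ± 0.670 FPKM with metformin, against 18.4 ± 0.202 FPKM without it. MGME1, an exonuclease of mitochondrial DNA maintenance, fell in both populations (log2 fold changes -0.92 in GPD1 cells and -1.12 in vector cells, limma adjusted p = 6.19e-08 and 1.19e-08), and MTERF2, a member of the mitochondrial transcription termination factor family, fell in vector cells (log2 fold change -1.03, limma adjusted p = 2.75e-06).

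Of 23 tested genes of mitochondrial RNA processing and stability, 17 were lower and 2 higher with metformin in GPD1 cells, against 48% of all genes lower and 26.1% higher. In vector cells 11 were lower, a share near the 43.3% of all genes, and 4 higher, against 31.3%. The median log2 fold changes in GPD1 and vector cells were -0.41 and -0.16. TRMT10C, a subunit of the mitochondrial RNase P that cuts the 5′ ends of tRNAs, had 0.789 ± 0.126 FPKM in GPD1 cells with metformin, against 10.7 ± 0.593 FPKM in untreated GPD1 cells (log2 fold change -2.71, SE 0.10, limma adjusted p = 2.76e-09). In vector cells TRMT10C had 4.75 ± 0.861 FPKM with metformin, against 11.9 ± 0.311 FPKM without it (log2 fold change -1.17, SE 0.10, limma adjusted p = 1.08e-06). FASTKD1, of a family of mitochondrial RNA binding proteins, and ANGEL2, a 2′,3′ cyclic phosphatase, fell in GPD1 cells by 1.20 and 1.04 on the log2 scale (limma adjusted p = 1.47e-08 and 3.9e-08). In vector cells the smallest p belonged to FASTK (-0.70), the founder of that family, to PNPT1 (-0.83), the polynucleotide phosphorylase of the mitochondrial degradosome, and to PDE12 (0.64), a poly(A) specific exonuclease, with limma adjusted p of at most 1.62e-07. With upper-quartile factors the counts in GPD1 cells were 10 lower and 8 higher for this list and 5 lower and 5 higher for transcription and replication. Among all 12582 genes tested with those factors, 3545 were lower and 5872 higher. The median log2 fold changes were -0.06 for this list and -0.07 for transcription and replication, against 0.17 for all genes. Under metformin, GPD1 against vector cells, 13 RNA processing genes were lower and 7 higher, and 7 transcription and replication genes lower and 1 higher, against 35% of all genes lower and 25% higher.

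The nuclear subunits of the same complexes were called in both directions. Of 37 nuclear complex I subunits, 19 were higher and 7 lower with metformin in GPD1 cells, against 26.1% of all genes higher and 48% lower. In vector cells 10 were higher, a share near the 31.3% of all genes, and 11 lower, against 43.3%. The median log2 fold changes in GPD1 and vector cells were 0.19 and 0.0049. NDUFV2, of the NADH binding module, was called higher in GPD1 cells with metformin at 18.5 ± 0.930 FPKM, against 11.9 ± 0.682 FPKM without it, and in vector cells at 16.9 ± 0.524 FPKM, against 10.51 ± 0.268 FPKM. NDUFS1 fell in both, to 4.59 ± 0.243 FPKM in GPD1 cells with metformin, against 9.02 ± 0.186 FPKM without it (log2 fold change -0.84, SE 0.05, limma adjusted p = 5.68e-08), and to 3.93 ± 0.0343 FPKM in vector cells, against 7.97 ± 0.425 FPKM (log2 fold change -0.86, SE 0.05, limma adjusted p = 4.03e-08). NDUFA8 fell in GPD1 cells by 0.62 and NDUFC2 in vector cells by 0.92 on the log2 scale (limma adjusted p = 7.33e-06 and 1.18e-07). Of 35 nuclear subunits of complexes III and IV and the ATP synthase, 21 were higher and 2 lower in GPD1 cells, and 17 higher and 7 lower in vector cells, against the same shares of all genes, with medians of 0.29 and 0.13. UQCRB of complex III had 14.8 ± 0.501 FPKM in GPD1 cells with metformin, against 7.29 ± 0.0764 FPKM without it, and 11.1 ± 0.955 FPKM in vector cells with metformin, against 6.32 ± 0.505 FPKM without it. ATP5F1E, the epsilon subunit of the ATP synthase, rose by 0.94 in GPD1 cells and 0.69 in vector cells, UQCRH of complex III rose by 0.48 in GPD1 cells, and ATP5PB of the ATP synthase stalk fell by 0.65 in vector cells, on the log2 scale (limma adjusted p at most 2.21e-05). With median-ratio factors the complex I counts were 28 higher and 3 lower in GPD1 cells and 17 higher and 4 lower in vector cells. Among all 12524 genes tested with those factors, 4991 were higher and 4195 lower in GPD1 cells. In vector cells 5262 of all genes were higher and 4096 lower, so the share of complex I subunits called higher there was near that of all genes. GPD1 against vector cells under metformin, 19 of the 37 complex I subunits and 22 of the 35 others were higher and 1 of each list lower, against 25% of all genes higher and 35% lower. Without metformin 5 and 7 were higher and 1 of each lower, against 9.99% of all genes higher and 11.3% lower.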

How the data were processed

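PolyA RNA of 12 A549 libraries was sequenced, per the labels. The submitters' processing notes name the build GRCh38 (hg38) and the tools HISAT2 2.1.0, CASAVA 1.8 and edgeR. The authors deposited 1 value per gene and library, read here as FPKM from the values, since the header names no unit and RPKM could not be told apart. Of the low values of single-exon genes, 97.19% to 97.78% were whole reads within 0.02, which gave the depths.

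Of the 58302 genes, 12607 passed a 12-library mean of 1 FPKM and entered limma 3.58.1 (R 4.3.3, trended variance) on log2(FPKM + 1), with all 4 groups in 1 fit and Benjamini-Hochberg adjustment. Values of a library were compared by exact two-sided permutation within strata (scipy 1.17.1), 6 tests adjusted together. Shares of reads are FPKM times length. Lengths and sequences come from GENCODE release 29, in which 97.16% of genes, and all 37 members, had the same locus. Both tests were tested on simulated data. Pooled tRNA reads have exact 95% intervals for counting error only. All 13 coding genes, both rRNAs and all 22 tRNAs were named, besides the 6 nuclear copies with the highest mean and up to 3 genes with the smallest p in each list and metformin comparison; other list genes were named after their values were seen. The members and lists were chosen with earlier results of these data known. Alternatives changed the scaling, pseudocount, filter, samples fitted and replicate block. Same-numbered libraries did not deviate together, so replicate numbers were not taken as pairs.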

Additional observations from a re-analysis of the deposited data

Results flagged for a closer look

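The change with metformin differed between GPD1 and vector cells for 27 of the 37 mitochondrial genes by limma's interaction term, and each is given as the log2 change in GPD1 cells minus that in vector cells. Among the tRNAs it was -5.88 for MT-TY, -5.78 for MT-TC, -5.59 for MT-TN, -5.41 for MT-TA, -4.76 for MT-TF, -4.15 for MT-TV, -3.65 for MT-TL1 and -2.99 for MT-TM. It was -2.86 for MT-TE, -2.22 for MT-TD, -1.61 for MT-TT, -1.5 for MT-TR, -1.41 for MT-TI, -1.30 for MT-TQ and -0.88 for MT-TW. For MT-TI, MT-TQ and MT-TW, the 95% intervals of the share kept, for counting error only, overlapped between the populations. Among the coding genes it was -2.38 for MT-ND3, -2.02 for MT-ND1, -1.64 for MT-ND6, -1.38 for MT-ND5, -0.94 for MT-CO2, -0.89 for MT-ND2, -0.66 for MT-ATP8, -0.59 for MT-CO1, -0.57 for MT-CO3 and -0.22 for MT-ND4L. The rRNAs had differences above 0, at 0.33 for MT-RNR1 and 0.54 for MT-RNR2.

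The log2 ratio of rRNA to coding gene reads was 0.79 higher in GPD1 than in vector cells with metformin and differed by -0.22 without it, every library moving one way in one treatment and the other way in the other. The difference between these 2 values was not tested.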

How the results depend on the processing

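Of the counts of members called and the library measures, 49 of 51 values under other settings and 130 of 132 with 1 library left out stayed within the limits set for them. The count of members that differed between GPD1 and vector cells without metformin was 5, and became 3 without a filter on level and 18 in a fit of those 2 groups alone. With 1 library left out it lay between 3 and 7. Of all 35437 genes tested without a filter on level, 1414 were called higher and 1822 lower. With the replicate block, 37, 35, 34, 6 and 26 members were called for metformin in GPD1 cells, metformin in vector cells, GPD1 against vector cells with and without metformin, and the interaction. Among all 12607 genes in that fit, 3242 were higher and 6011 lower with metformin in GPD1 cells, and 3928 and 5405 in vector cells. For GPD1 against vector cells, 3107 were higher and 4339 lower with metformin, and 1152 and 1222 without it. The interaction had 2326 higher and 3317 lower. Without metformin the 6 members, all lower, made no larger share than the calls of both directions together among all genes. Their share was larger than that of the lower calls alone. Same-numbered libraries had correlations of -0.0651 to 0.0561, so the block rests on numbers alone.

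Signs turned for small changes only. With median-ratio and upper-quartile factors, MT-TL1 in vector cells changed by 0.028 and 0.038 with metformin, and MT-ND4 differed by 0.069 and 0.21 between GPD1 and vector cells under metformin and by 0.027 and 0.16 in the interaction. With upper-quartile factors MT-ND4L differed by 0.11 under metformin and by 2.7e-05 in the interaction, and MT-TP by 0.0027 in the interaction. MT-TL1 without metformin was -0.0082 with totals that leave out mitochondrial genes. With 1 library left out, MT-ND4 under metformin lay between -0.067 and 0.02. For GPD1 against vector cells without metformin, MT-TT lay between -0.11 and 0.0022, MT-TL1 between -0.0047 and 0.029, MT-TQ between -0.15 and 0.070 and MT-ND4 between -0.017 and 0.058. In the interaction MT-TG lay between -0.27 and 0.091 and MT-TH between -0.35 and 0.037. The cause was not tested. Depth limits the tRNAs under metformin in GPD1 cells, where 15 of 22 had at most 3 reads in every library.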
